A study of Rattus norvegicus with 2 samples.

Results

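T cells are the lymphocytes that recognise peptides on other cells through a T cell receptor (TCR), and they fill the paracortex of lymph nodes, which they enter from the blood and leave through the lymph. The receptor chains signal through the CD3 chains and CD247, the kinases Lck and Zap70 pass the signal to the adaptors Lat and Lcp2, and co-receptors, adhesion molecules and co-stimulatory receptors tune it. Transcription factors such as Bcl11b, Tcf7, Lef1 and Gata3 keep T cells in their lineage, and Cd69 appears on the surface soon after a T cell is activated, where it opposes the egress receptor S1pr1.

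A set of 33 such genes was followed in rat cervical lymph nodes under restraint stress. They were taken by gene symbol: 31 of the 33 occur as gene names on the array, and all 31 were well above background on at least 1 of the arrays, out of 21096 genes that met this condition. The symbols Themis and Tcf7 do not occur as gene names, and probes whose description in the files names them are given separately and enter no count. Of the 31 genes, 29 were well above background on both arrays, while Cd40lg and Ctla4 were so on the stressed array alone. Where a gene had several probes, the values are those of the probe with the strongest mean signal unless another is named.

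The data are 1 array from a no-stress control group (C) and 1 array from a restraint stress group (RS), both of total RNA from the cervical lymph nodes of male Sprague-Dawley rats aged 10 to 12 weeks. The labels name no transgene or drug, the stressed animals were held by immobilization on their backs, and the labels do not give the restraint time. The study's text names the stressed group of its array comparison RS30, the shortest of its restraint times. That text also names this series as its array data. The file headers, however, give a scan date before the study's stated period of experiments and another scanner model than its methods. How far those methods describe these arrays is therefore uncertain. The sources used here do not give how many rats gave RNA to an array. Each array carried 60-base probes and was hybridized with Cy3-labeled RNA. With 1 array per group there was no replicate, so no p-value was computed, and the error given with a difference is the error of the spots alone.

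Across the 31 genes the median log2 difference (RS minus C) was −0.16, against 0.02 over all 21096 screened genes. On the RS array 21 of the 31 genes were lower by any amount, where 47.9% of all screened genes were. Only Cd69 was higher by 2-fold or more, at 2.83-fold, and 3.46% of all screened genes were higher to this extent. Only Bcl11b was lower by 2-fold or more, at 2.21-fold, and 4.28% of all screened genes were lower to this extent. Nearest to this threshold of 1 on the log2 scale were Cd5 at −0.97 and Il7r at 0.97 within it and Bcl11b at −1.14 beyond it, with Cd69 well beyond it at 1.50. The difference was more than 1.96 times the spot error for 11 of the 31 genes, against 21.2% of all screened genes: Cd69, Il7r, Cd28 and Il2ra were higher on the RS array, and Bcl11b, Cd5, Cd6, Gata3, Cd2, Lck and Cd8a were lower. Since whole nodes were measured, fewer T cells and less of an RNA per T cell cannot be told apart.

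A few probes are shown because each value is the signal of a single 60-base sequence. All are as given in the array files, 5′ to 3′, in lower case, with positions in the build rn4 named in the file headers. The probe of Cd69 lies at chr4:166528654-166528713 on the minus strand, and the dimmer of the Bcl11b probes, whose log2 difference was −0.74, lies at chr6:132294349-132294408 on the minus strand. The probe of Cd5, at chr1:213216483-213217309 on the minus strand, is spread over 827 bases of genome and so joins separate stretches of it, and that of Lck does the same over 2108 bases at chr5:148713169-148715276 on the minus strand.
Cd69: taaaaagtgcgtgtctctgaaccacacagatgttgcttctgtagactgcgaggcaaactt
Bcl11b: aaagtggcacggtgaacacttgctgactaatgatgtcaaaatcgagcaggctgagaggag
Cd5: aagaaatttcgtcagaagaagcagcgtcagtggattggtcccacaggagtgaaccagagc
Lck: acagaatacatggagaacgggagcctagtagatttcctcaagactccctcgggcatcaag

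A further set of probes is shown because they hold runs of a repeated pair of bases, here in capitals. The probe described as Themis (chr1:17150981-17151040, minus strand) and the probe used for Cd6 (chr1:213290849-213290908, minus strand) hold runs of alternating A and G. The last 30 bases of the probe used for Cd28 (chr9:59369623-59369682, plus strand) are mostly a run of 24 alternating C and T bases.
Themis: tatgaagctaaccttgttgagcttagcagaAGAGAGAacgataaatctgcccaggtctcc
Cd6: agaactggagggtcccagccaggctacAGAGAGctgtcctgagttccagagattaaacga
Cd28: gggttcCTCTCTCTCTCTCTCTCTCTCTCT

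Among all screened genes, 1013 were represented by a probe with an A and G run at least 6 bases long, and 40.3% of them were lower on the RS array by 2-fold or more, compared with 2.46% of the other 20083. Their median log2 difference was −0.46, against 0.02 for the others. Of the 31 T cell genes, Cd6 alone was represented by such a probe. Alternating C and T runs of the same length or longer occurred in the probes of 682 screened genes, whose median log2 difference was 0.02, with 4.11% lower and 3.23% higher by 2-fold or more.

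The TCR-CD3 chains and co-receptors showed small differences, and none of the 7 reached 2-fold. Their median log2 difference was −0.16, and 6 of 7 were lower on the RS array. Of all screened genes, 47.9% were lower by any amount, and 3.46% were higher and 4.28% lower by 2-fold or more. Cd3g, a CD3 signalling chain, gave an intensity reading of 13692 on the C array and of 11604 on the RS array, a log2 difference of −0.14 ± 0.14 (spot error). Cd3d, its partner chain, read 13198 and 11126, a log2 difference of −0.15. Both had 2 spots on each array, and on the RS array these spots read 10928 and 12323 for Cd3g and 9605 and 12889 for Cd3d, so that the spots of each gene were at least as far apart as its difference between arrays. Cd3e, the CD3 chain bound by antibodies used to stimulate T cells, read 743 on the C array and 619 on the RS array, a log2 difference of −0.16. The probes of these 3 genes lie within 26.0 kb on chromosome 8, the genes are neighbours with no other protein-coding gene between them in the RefSeq table of GRCr8, and their log2 differences ranged from −0.16 to −0.14. Cd247, the zeta chain that carries much of the signalling capacity of the receptor, read 4378 and 3365, a log2 difference of −0.28.

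The log2 differences of the co-receptors of helper and cytotoxic T cells ran from −0.52 to 0.01. Cd4, the co-receptor of helper T cells, which rat macrophages also carry, read 1831 on the C array and 1726 on the RS array, a log2 difference of 0.01 ± 0.20. Its other probe read 94.3 and 72.8, a log2 difference of −0.27, so that the probes of Cd4 differed in sign, and the sign of the used probe turned under 6 of 14 other ways of processing. Cd8a, the alpha chain of the co-receptor of cytotoxic T cells, read 907 and 590, a log2 difference of −0.52 ± 0.20 that was the lowest of the group. Cd8b, the beta chain encoded beside it on chromosome 4, read 267 and 223, a log2 difference of −0.16. The Cd8a and Cd8b values each carried a spot error of 0.20, and setting one against the other carries both errors. Whether they differ from each other was not tested.

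**Figure D1:**
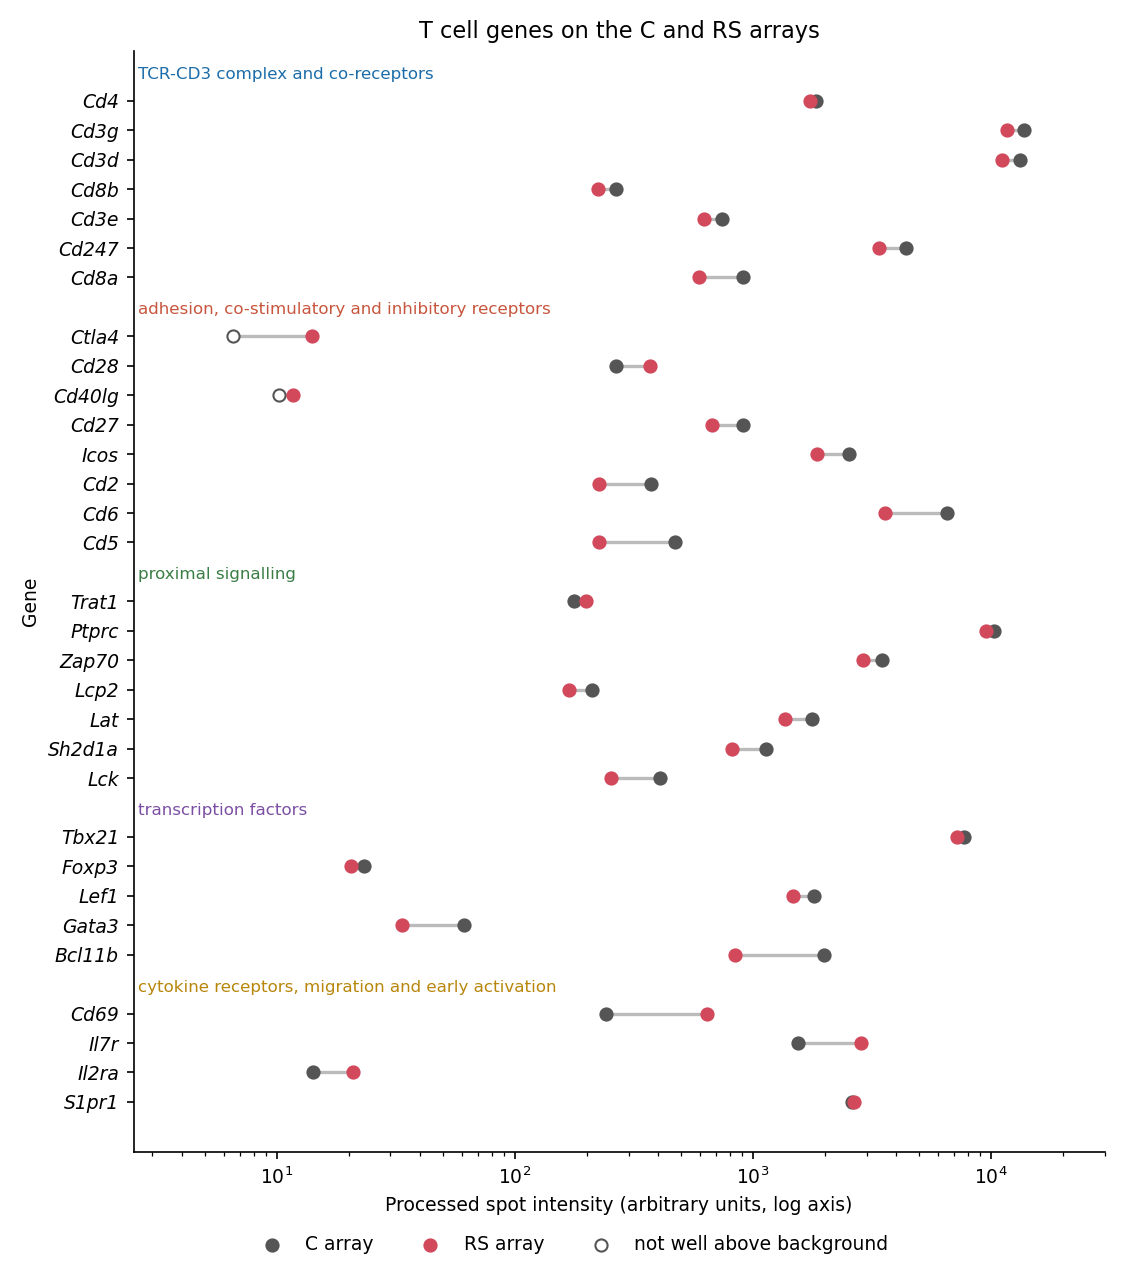
Processed spot intensity (arbitrary units, log axis) of each T cell gene on the C array and the RS array, grouped by role, with open circles where a probe did not clear the background. Most pairs of points nearly touch, Cd69 moves from 242 to 638, Bcl11b from 1992 to 842, and Ctla4 and Cd40lg have an open circle on the C array.

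The adhesion, co-stimulatory and inhibitory receptors had the lowest median of the groups, at −0.34 over 8 genes. On the RS array 5 were lower and 3 higher, where 47.9% of all screened genes were lower. Of the higher genes, Ctla4 and Cd40lg were well above background on the RS array alone, so they could enter only as higher. Cd5, a scavenger-receptor family protein that dampens TCR signalling, read 471 on the C array and 225 on the RS array, a log2 difference of −0.97 ± 0.20, which became −1.07 without normalization between the arrays. Cd6, a related receptor whose gene is its neighbour on chromosome 1, read 6519 and 3583, a log2 difference of −0.76 ± 0.14. The Cd6 probe holds a run of alternating A and G bases, and its other probe, which holds none, read 98.0 and 57.5, a log2 difference of −0.67. Both members of this gene pair were therefore lower on the RS array, by 1.96-fold for Cd5 and by 1.70-fold and 1.59-fold on the probes of Cd6.

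Cd2, an adhesion molecule that binds partners on antigen-presenting cells, read 374 on the C array and 225 on the RS array, a log2 difference of −0.64. Icos, a co-stimulatory receptor of helper T cells in follicles, read 2522 and 1852, a log2 difference of −0.35, and its other probes gave −0.24 and −0.30. Cd27, a member of the TNF receptor family on naive and memory cells, read 905 and 671, a log2 difference of −0.33, with −0.22 on its other probe. All 3 Icos probes and both Cd27 probes pointed to a lower signal on the RS array, by 1.27-fold at most.

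The 3 higher members of this group were read near the background or on a probe with a repeated run. Cd28, the main co-stimulatory receptor of T cells, read 265 on the C array and 369 on the RS array, a log2 difference of 0.57 ± 0.20, but on the probe that ends in the run of C and T bases shown above. Its other probe read 2.30 and 2.44 and cleared the background on neither array. Ctla4, an inhibitory receptor that competes with Cd28 for its ligands, read 6.56 on the C array, not well above background, and 14.1 on the RS array, which made it at least 1.59-fold higher there, and its other probe cleared the background on neither array. Cd40lg, the ligand through which helper T cells activate B cells, read 10.2 on the C array, also not well above background, and 11.7 on the RS array, at least 1.23-fold higher. Both bounds lie close to the lowest intensity that was well above background, 9.45 for the C array and 8.52 for the RS array.

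The proximal signalling genes had a median log2 difference of −0.22, and 6 of the 7 measured were lower on the RS array, none by 2-fold. Among all screened genes, 47.9% were lower by any amount and 4.28% by 2-fold or more. Lck, the kinase that starts TCR signalling, read 406 on the C array and 253 on the RS array, a log2 difference of −0.58 ± 0.20, the lowest of the group. Sh2d1a, the adaptor SAP of the SLAM receptors, read 1135 and 818, a log2 difference of −0.37, with −0.52 on its other probe. Lat, the membrane scaffold of the pathway, read 1770 and 1363, a log2 difference of −0.28. Lck was lower by 1.50-fold, and the next lowest of the group by 1.30-fold.

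Lcp2, the adaptor SLP-76, read 211 on the C array and 169 on the RS array, a log2 difference of −0.22. Zap70, the kinase that binds the phosphorylated CD3 chains, read 3483 and 2887, a log2 difference of −0.17. Ptprc, which encodes the phosphatase CD45 of all white blood cells, read 10274 and 9513, a log2 difference of −0.01 ± 0.20 that turned to 0.01 when arrays were centred on their medians. Trat1, an adaptor that stabilises the receptor complex, was the only higher gene of the group, reading 177 and 199, a log2 difference of 0.27 ± 0.21. On the probes used, no gene of this group apart from Lck differed by more than 1.96 times its spot error, whereas the other probe of Sh2d1a, which read 945 and 615, differed by 2.55 times its own.

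The transcription factors ranged from the lowest value of all T cell genes to no difference. Bcl11b, which commits precursors to the T lineage, read 1992 on the C array and 842 on the RS array, a log2 difference of −1.14 ± 0.20. Its other probe, shown above, read 1133 and 632, a log2 difference of −0.74, so that both probes were lower on the RS array but 1 of them was short of 2-fold. Averaged over its probes, Bcl11b was at −0.94. Gata3, the regulator of T cell development and of type 2 helper cells, read 60.8 and 33.7, a log2 difference of −0.75 ± 0.22, with −0.70 on its other probe. On the probes used, no other transcription factor differed by more than 1.96 times the spot error. After the normexp background correction, which adds an offset of 50 to every signal, Gata3 was at −0.30. That is within 1.96 times its spot error of 0.22, but this error was not recomputed after the correction.

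Lef1, a factor of naive T cells, read 1809 on the C array and 1469 on the RS array, a log2 difference of −0.20, with −0.30 on its other probe. Foxp3, the factor of regulatory T cells, read 23.3 and 20.5, a log2 difference of −0.08 ± 0.29, and its other probe did not clear the background. Tbx21, the factor of type 1 helper cells, read 7711 and 7221, a log2 difference of 0.00 ± 0.20 that took either sign with the scaling. On the probes used, these 3 genes differed by no more than the spot error.

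The 4 genes grouped as cytokine receptors, migration and early activation were all higher on the RS array, where 47.9% of all screened genes were lower. Their median log2 difference was 0.82. Cd69 read 242 on the C array and 638 on the RS array, a log2 difference of 1.50 ± 0.20 on its only probe, which held no run of alternating bases. Il7r, the receptor chain for the survival cytokine interleukin-7, read 1547 and 2834, a log2 difference of 0.97 ± 0.20, and its other probe read 240 and 387, a log2 difference of 0.79. Il2ra, the high-affinity chain of the interleukin-2 receptor on activated and regulatory T cells, read 14.1 and 21.0, a log2 difference of 0.67 ± 0.33 close to the background, which became 0.20 after the normexp background correction. S1pr1, the receptor through which lymphocytes leave the node, read 2604 and 2653, a log2 difference of 0.13 ± 0.20. Cd69 and Il7r lay above the 95th percentile of all screened genes, 0.81, and Bcl11b and Cd5 below the 5th percentile, −0.88.

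**Figure D2:**
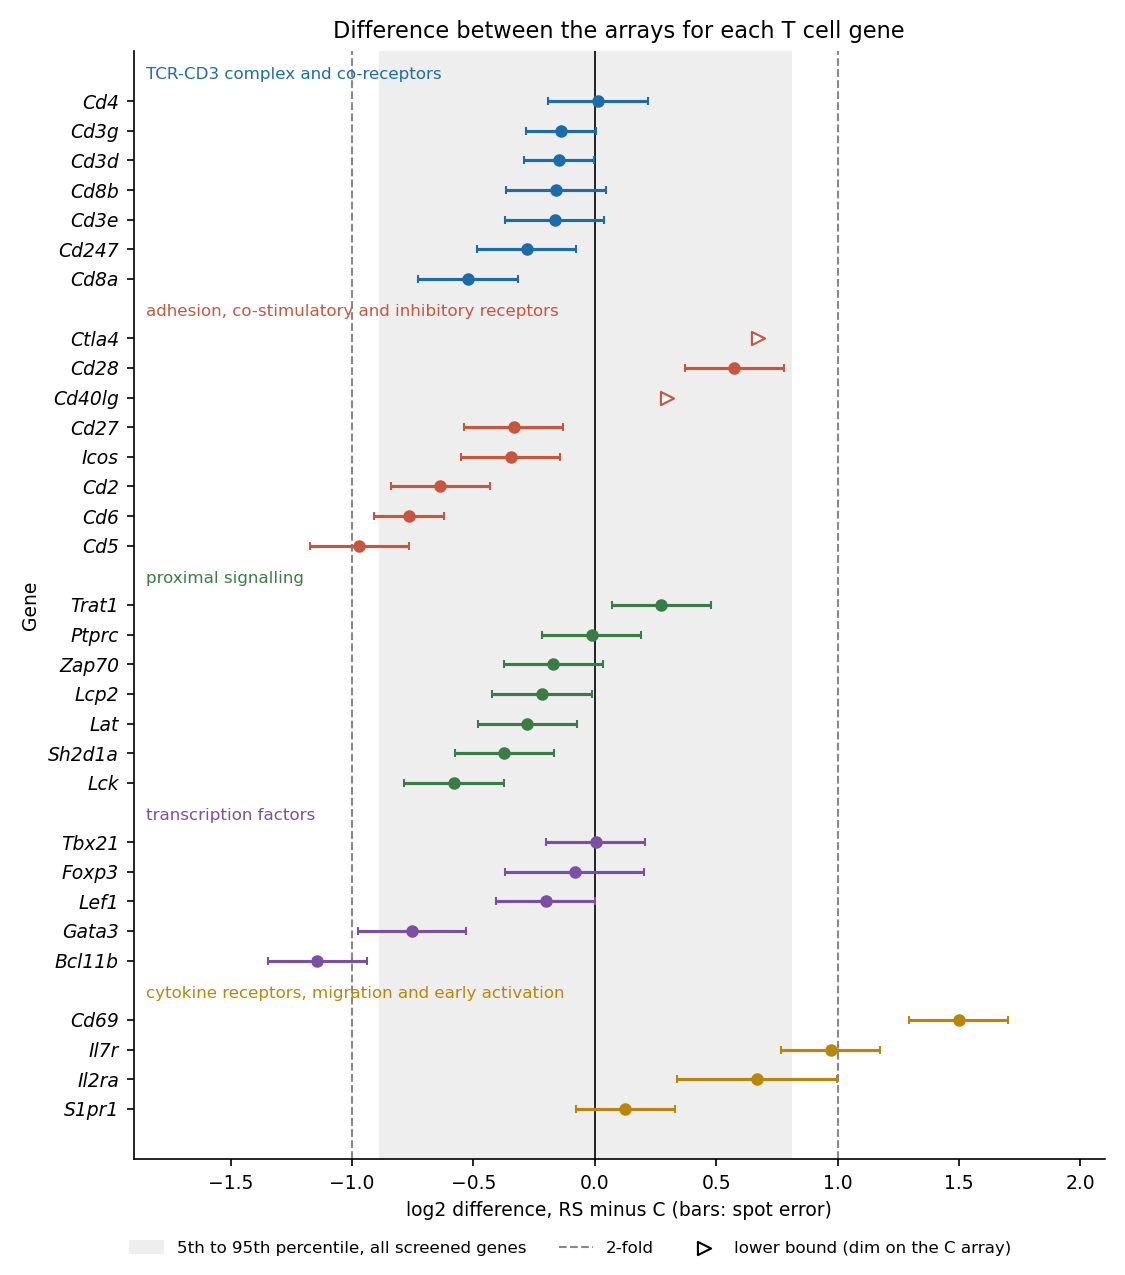
Log2 difference between the arrays (RS minus C) for each T cell gene, with bars for the spot error, open triangles for lower bounds, dashed lines at 2-fold and a grey band from the 5th to the 95th percentile of all screened genes. Cd69 at 1.50 and Bcl11b at −1.14 lie outside the dashed lines, and Il7r at 0.97 and Cd5 at −0.97 lie just inside them and outside the band.

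Taking the mean log2 difference of Cd3e, Cd3d, Cd3g and Cd247, −0.18, as the reference in place of the whole array gave the values relative to the RNA of the receptor chains. On this scale, chosen after the values were known, Cd69 was at 1.68, Il7r at 1.16, Bcl11b at −0.96 and Cd5 at −0.79. Il7r then lay past 2-fold and Bcl11b no longer did.

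Most genes with several probes gave a single picture. Of the 9 genes with more than 1 probe well above background, 8 had all of these probes on the same side of 0, and Cd4 was the exception. The probes of Gata3 were 0.06 apart on the log2 scale, those of Cd6 0.10, of Il7r 0.18, and those of Bcl11b, the widest, 0.40. The mapped probes of Bcl11b lie within 2779 bases of each other on chromosome 6.

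The genes absent as gene names are reached only through the description of their probes. The single probe described as Themis, a TCR signalling protein of developing T cells, read 322 on the C array and 77.4 on the RS array, a log2 difference of −1.96 ± 0.21, on the sequence with the A and G run shown above and with no other probe to set beside it. Tcf7, a factor of naive and memory T cells, was described for 3 probes without such a run. They read 5813 and 3280, 3796 and 2432, and 146 and 113, log2 differences of −0.73, −0.54 and −0.27. All 3 were lower on the RS array and short of 2-fold.

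**Figure D3:**
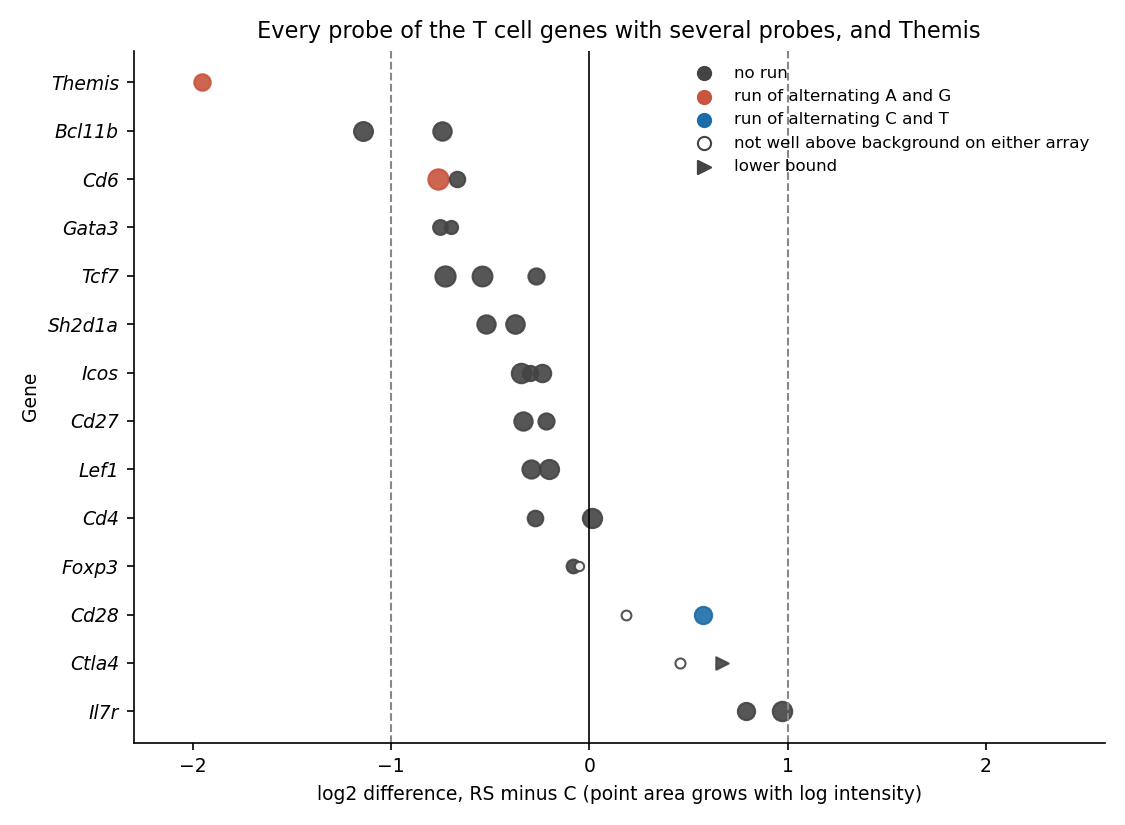
Log2 difference (RS minus C) of every probe of the T cell genes that have several probes and of the single probe described as Themis, with point area growing with log intensity, colour for runs of alternating bases, open circles for probes not well above background and a triangle for a lower bound. The Bcl11b probes lie at −1.14 and −0.74, the Themis probe with its A and G run at −1.96, and the Cd4 probes on either side of 0.

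Other genes of T cells were read from lists of the same pathway. Among 40 further TCR signalling genes none differed by 2-fold, where 3.46% of all screened genes were higher and 4.28% lower. By any amount, 20 were higher and 20 lower on the RS array, where 47.9% of all screened genes were lower. The median log2 difference of these 40 genes was 0.00. The extremes were Grap2, an adaptor that binds Lcp2, at −0.89, with intensities of 76.0 and 38.3, and Cblb, a ubiquitin ligase that restrains T cells, at 0.76, with intensities of 791 and 1249. Coro1a, an actin regulator of lymphocytes, read 44942 and 41699, a log2 difference of −0.01.

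Among 17 other co-receptors and checkpoints the median was −0.29. By 2-fold or more, 2 were higher and 1 lower, where 3.46% and 4.28% of all screened genes were. Tnfrsf18, the receptor GITR of regulatory and activated T cells, read 1309 on the C array and 2524 on the RS array, a log2 difference of 1.05. Havcr2, the inhibitory receptor TIM-3, read 45.2 and 94.2, a log2 difference of 1.16 on a probe with a run of C and T bases, and 0.71 on its other probe, which had none. Cd226, an activating receptor, read 6323 and 816, a log2 difference of −2.85 on a probe with a run of A and G bases, while its probes without such a run gave −0.29 and −0.03.

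Cytokines and subset regulators had a median of −0.18 over 16 genes. By 2-fold or more, 1 was higher and 3 were lower, where 3.46% and 4.28% of all screened genes were. Il10, an inhibitory cytokine, read 25.3 on the C array and 109 on the RS array, a log2 difference of 2.20 on a probe with a run of C and T bases, and 2.01 on a probe without it. Il21, a cytokine of follicular helper T cells, read 107 and 14.4, a log2 difference of −2.80, and Eomes, a factor of cytotoxic and memory cells, read 344 and 96.6, a log2 difference of −1.73. Il4, the cytokine of type 2 helper cells, read 19.7 on the C array and 4.91 on the RS array, not well above background there, and was at least 2.16-fold lower. Bcl6, the factor of follicular helper T cells and germinal centre B cells, read 4942 and 4028, a log2 difference of −0.20. The probes of Il21, Eomes and Il4 held no run of alternating bases.

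The genes of naive T cell homing and egress had a median of −0.22 over 12 genes. Klf2, the factor that maintains S1pr1 in resting T cells, read 569 on the C array and 256 on the RS array, a log2 difference of −1.05. Cxcr4, a chemokine receptor of many leukocytes, read 604 and 1690, a log2 difference of 1.58. Satb1, a chromatin organiser of T cells, read 9347 and 11578, a log2 difference of 0.41. Ccr7, a chemokine receptor that brings naive cells into the node, was at −0.53, lower by less than 2-fold, while S1pr1 itself was at 0.13.

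All 13 early genes of lymphocyte activation were higher on the RS array, with a median of 0.84, where 47.9% of all screened genes were lower. By 2-fold or more, 6 were higher, where 3.46% of all screened genes were. Fos and Fosb were not well above background on the C array, so they could enter only as higher. The 11 genes well above background on both arrays had a median of 0.74. Nr4a1, an orphan receptor induced by TCR signals among other stimuli, read 477 on the C array and 1231 on the RS array, a log2 difference of 1.47. Ier2, an early response gene of many cell types, read 3677 and 5737, a log2 difference of 0.74. The other 5 past 2-fold were Fosb, Nr4a3, Fos, Nr4a2 and Junb, from at least 5.75 for Fosb to 1.56 for Junb on the log2 scale. These genes respond to stimuli in most cell types, and which cells of the node carried their RNA was not tested.

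**Figure D4:**
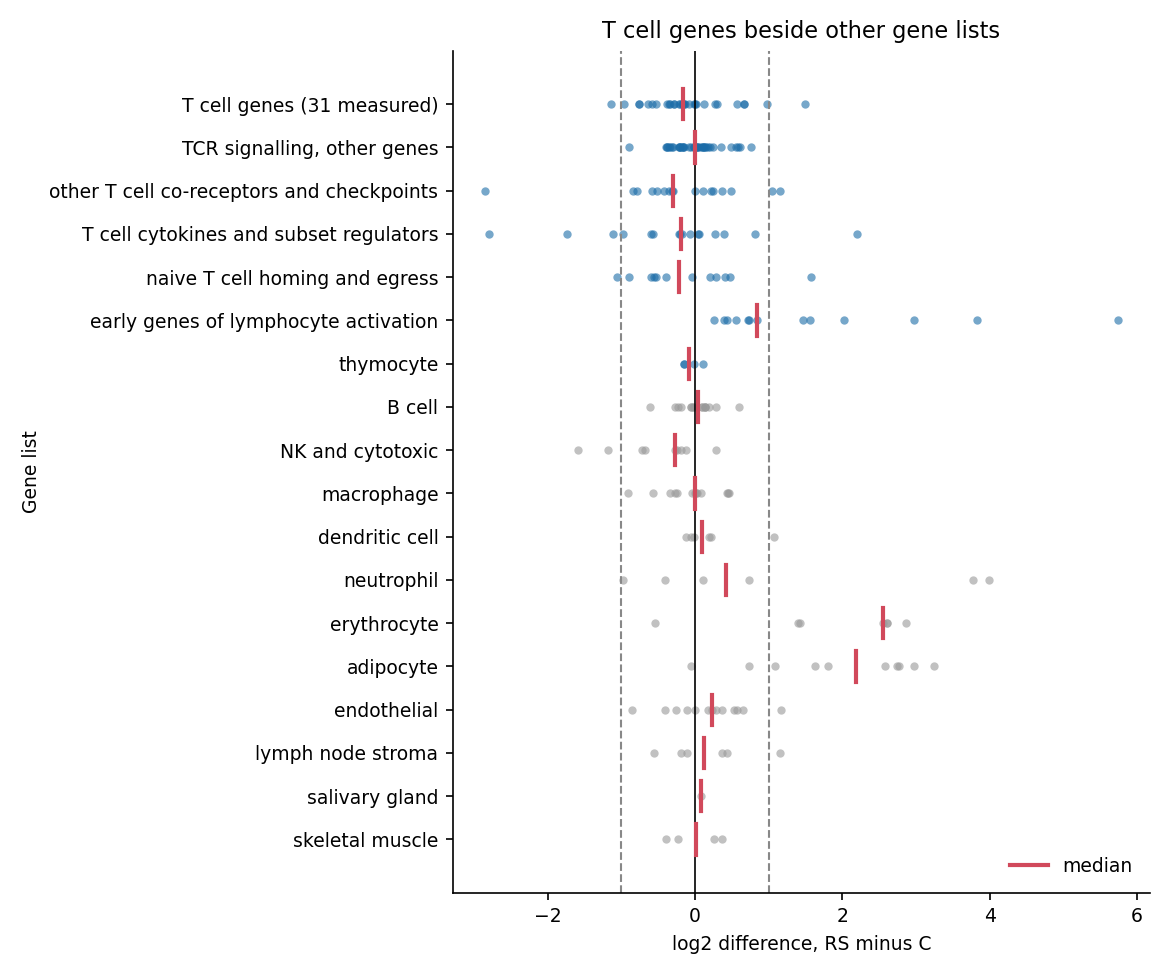
Log2 difference (RS minus C) of each usable gene in the T cell set and in 17 other lists, with red marks for list medians, dashed lines at 2-fold and lower bounds plotted at the bound. The T cell set is centred near −0.16, the early genes of lymphocyte activation lie wholly above 0, and the erythrocyte and adipocyte lists have medians of 2.55 and 2.19 (1.47 and 1.43 after the normexp background correction).

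Markers of some other cells also differed between the arrays and those of others hardly did, and their part in the T cell values was not tested. The summed level of the T cell genes, in units of each array's 75th percentile, came to 421 (C) and 381 (RS) over 31 genes, and that of 16 of 17 B cell markers was 201 and 205, with a median log2 difference of 0.04. For 7 of 9 erythrocyte markers the sum was 53.0 and 317, while Epb42 and Slc4a1 did not clear the background. The largest parts came from Hba1, at 5953 and 33805, and Hbb-b1, at 3747 and 20525. Klf1 alone was lower on the RS array, at −0.54 on the log2 scale. For 10 of 11 adipocyte markers the sum was 74.0 and 211, with only Plin1 not well above background. For 6 of 9 neutrophil markers it was 0.78 and 4.66, with Camp, Elane and Mpo not well above background. Among these 6, S100a8 went from 19.3 to 286 and S100a9 from 36.3 to 464, while Ltf was at −0.97, Mmp8 at −0.41 and Csf3r at 0.11 on the log2 scale. Cxcr2 read 10.1 on the C array, not well above background, and 15.6 on the RS array, at least 1.66-fold higher there. For 9 of 11 NK and cytotoxic markers the sum was 19.3 and 14.6, with Klrb1a at −1.59 and Xcl1 at −1.18 on the log2 scale. Ncr1 was not well above background. Macrophage, dendritic cell, endothelial and stromal lists had medians from 0.00 to 0.23. In these lists 7 of 13, 3 of 6, 4 of 13 and 3 of 6 genes were lower, where 47.9% of all screened genes were. Past 2-fold were only Cd83 at 1.08, Emcn at 1.17 and Pdpn at 1.16 on the log2 scale. Of all screened genes, 3.46% were higher and 4.28% lower to this extent. Emcn read only 20.6 on the C array, and the other probe of Pdpn gave 0.55. The lowest were Vsig4 at −0.91, Flt3 at −0.12, Cldn5 at −0.86 and Ccl19, on a probe with an A and G run, at −0.56. The thymocyte markers Rag1 and Rag2 were not well above background. Of 6 salivary gland markers found, Pigr alone was above background, at a log2 difference of 0.08, and the median of 4 skeletal muscle markers was 0.01.

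**Figure D5:**
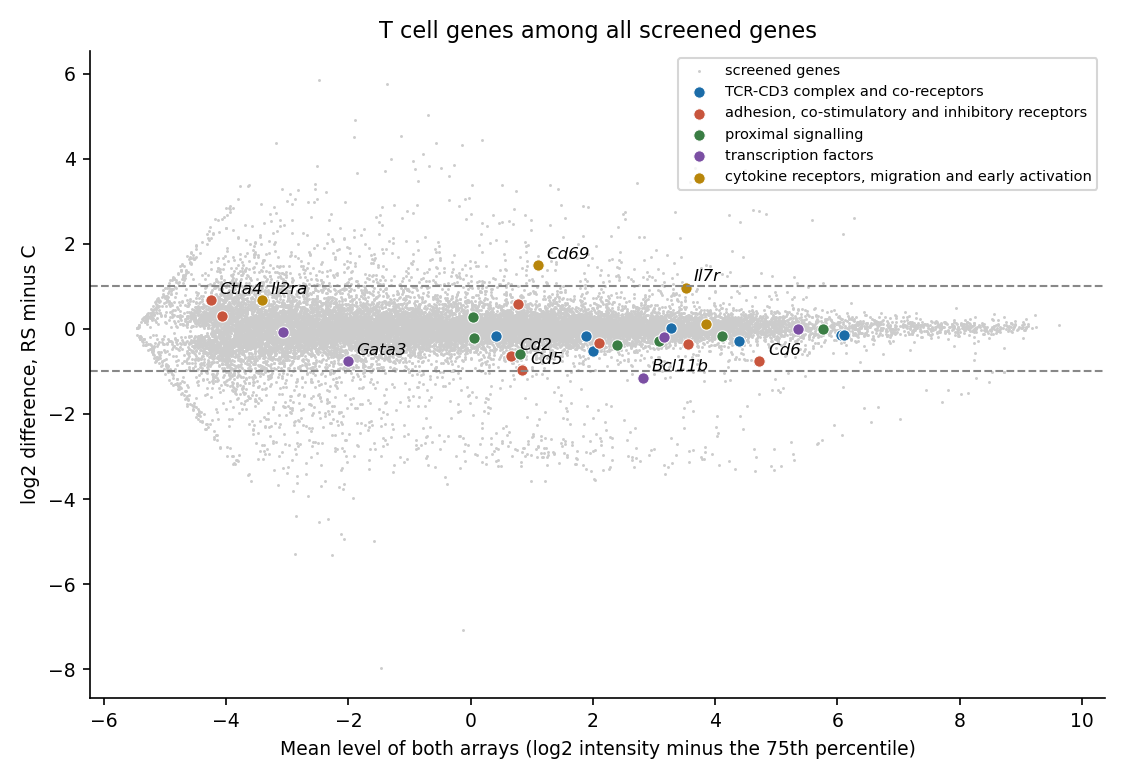
Log2 difference (RS minus C) against the mean level of both arrays (log2 intensity minus the 75th percentile) for all screened genes in grey and the T cell genes in colour, with dashed lines at 2-fold. Of the 31 T cell genes, 26 lie above the median level of all screened genes, and Cd69 and Bcl11b are the only ones beyond the dashed lines.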

How the data were processed

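RNA of cervical lymph nodes was measured on 1 C array and 1 RS array of an Agilent 8X60K rat design, which lay on 1 slide read in 1 scan. The authors extracted the spots with Agilent Feature Extraction 11.5.1.1, per the submitters' processing notes, and deposited spot intensity values with background subtraction and no normalization between arrays, plus a log2 table per probe. Of that deposited log2 table, 100% of values lay within 0.1 of log2 intensity minus the 75th percentile computed here, so scale and direction are known.

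Control spots and outlier spots were left out, log2 intensities averaged per probe, and the 75th percentile over 45598 probes subtracted (intensities of 189 on C and 176 on RS). A probe was well above background when more than 50% of its spots were marked so, which held for 54.7% and 54.9% of probes. No spot was saturated. Where this held on 1 array only, the fold was taken against the higher of the dim probe's signal and the lowest signal well above background there, and is a lower bound. The threshold was 2-fold, as in the study's methods. The spot error combines the scanner software's errors of both arrays and covers the spots alone. The number of arrays limits the precision, and no test was run. Every gene of the set is named, with genes of other lists where past 2-fold, at an extreme or with the strongest signal of their list. A few were named after their values were seen, such as Cd226's and Havcr2's other probes and Ccr7, and some list genes are not reported here. The members and lists were chosen with earlier results of these data known. RefSeq accessions matched 40 of 44 probes of the set. The steps were tested on simulated arrays, both made from the C array with added spot noise and known folds for 200 genes. Such arrays hold no variation between animals, so the test says nothing about it. Python 3.11.15, pandas 2.3.3, R 4.3.3 and limma 3.58.1 were used, and the values were recomputed under 13 other ways of processing, plus 1 chosen after seeing the data.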

Additional observations from a re-analysis of the deposited data

How the results depend on the processing

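Of 432 values of single T cell genes under 14 alternatives, 426 lay within the spot error of the reported value, 6 moved by more (Cd69, Gata3 and Il2ra to 1.28, −0.30 and 0.20 with normexp, and Cd3d, Cd3g and Cd6 with the centring on the CD3 chains) and neither gene past 2-fold changed sign. Most alternatives left most values nearly unchanged or shifted all genes by a similar small amount, so few could move a value beyond its spot error. A difference above 1.96 times the spot error was lost for Gata3 with normexp, for Cd8a and Lck with the centring, and for Il2ra with normexp, without normalization, with the 75th percentile over spots and with A and G probes left out, and it was gained in at least 1 setting for Cd27, Icos, Sh2d1a, Ctla4 and Trat1. The spot error of the reported value was used throughout and was not recomputed. With normexp, a difference made smaller by the offset was thus set against an error that was not. The median log2 difference of the T cell genes ran from −0.26 without normalization to −0.14 with arrays centred on their medians, and was 0.02 when centred on the mean of Cd3e, Cd3d, Cd3g and Cd247, a setting chosen after seeing the data. The count past 2-fold higher was 2 with the ratio of the signals for dim probes, which adds Ctla4, and 2 when centred on the CD3 chains, which adds Il7r. The count past 2-fold lower was 2 without normalization, with the 75th percentile over spots and with probes holding alternating A and G bases left out, each adding Cd5, and it was 0 when the probes of a gene were averaged and with the centring on the CD3 chains, where Bcl11b drops out. The count of genes whose probes disagree, 1 for Cd4, was 0 with the 75th percentile taken over probes that cleared the background on both arrays, with quantile normalization, without normalization, with the 75th percentile over spots, with the normexp background correction and with alternating A and G probes left out. With normexp the list medians were 1.47 for erythrocyte, 1.43 for adipocyte, 0.13 for neutrophil and −0.04 for other co-receptors. The neutrophil median was 0.11 when its markers had to clear the background on both arrays, and the naive homing median was −0.09 with A and G probes left out. Over all genes, the counts past 2-fold higher and lower were 234 and 378 with normexp, 493 and 601 with probes well above background on both arrays, and 1741 and 1905 with no filter on background, against 730 and 903. No paired analysis was possible because the C and RS groups hold a single array apiece, and no replicate could be left out. Spot intensity near the background limits Cd40lg, Ctla4, Il2ra and Foxp3.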
